A study of Homo sapiens with 8 samples.

Results

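Aminoacyl-tRNA synthetases, the enzymes that load each amino acid onto its tRNA, were followed through a ribosome profiling experiment in the osteosarcoma cell line U2OS. The members were a list of gene symbols drawn up with earlier results of these data known. The list named 36 genes, of which 20 encode the cytosolic enzymes and 16, with symbols that end in 2, the mitochondrial enzymes. The table of 26902 entries held 35 of them, all 20 cytosolic and 15 mitochondrial; VARS2 was not analysed here. The cells carried an empty vector or overexpressed QKI7, 1 of the splice forms of the RNA-binding protein QKI, and both kinds had received 0.5 mM sodium arsenite (NaAsO2) for 1 h before harvest, so arsenite was common to every library and its own effect could not be measured. For each construct there were 2 libraries of input RNA depleted of ribosomal RNA and 2 libraries of ribosome footprints of 17 to 34 nt, 8 in all. The labels name neither the promoter of the construct nor a clone, and do not tie the libraries of a group to separate cultures. The error behind each p-value is therefore that between libraries, and some of it may be technical only.

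Synthetases fall into class I and class II by the fold of their catalytic domain. In the cytosol several of them sit together in the multisynthetase complex, held by the scaffold proteins AIMP1, AIMP2 and EEF1E1, while others act on their own. Many cytosolic synthetase genes are known targets of ATF4, a transcription factor that the integrated stress response brings up, that arsenite induces and that binds C/EBP-ATF response elements. The mitochondrial enzymes are made from nuclear genes, imported, and serve the synthesis of respiratory chain subunits inside the organelle. GARS and KARS each supply both compartments from a single gene, and mitochondrial glutaminyl-tRNA is formed through EARS2 and an amidotransferase.

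The core of the C/EBP-ATF element was looked for in promoter windows of 300 bases from RefSeq (GRCh38.p14, 250 bases before to 50 after a start site), which were given for 30 of the 36 members in 39 windows. The motif TGATGNAA, on either strand, was found in 7 of 16 cytosolic genes with a window (AARS, CARS, GARS, IARS, MARS, NARS and TARS) and in 1 of 14 mitochondrial genes (YARS2). That was 7 of 21 cytosolic windows, or 33.3%, and 1 of 18 mitochondrial windows, or 5.56%, beside 3.62% of all 35116 windows. The longer TGATGNAAT, which contains the first motif, occurred in GARS and TARS and in 0.991% of all windows. All 7 cytosolic genes with a match were among the 12 listed here as ATF4-responsive. Each match is shown with its flanks, 30 bases in the direction of the gene, because the members are grouped by this match further on. The other 9 cytosolic genes with a window had none, and no enrichment was tested. Capitals mark the motif or, where it lies on the opposite strand, its reverse complement.
AARS, chr16:70289675-70289704, minus strand: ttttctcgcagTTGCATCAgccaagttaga
CARS, chr11:3057407-3057436, minus strand: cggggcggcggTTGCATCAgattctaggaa
GARS, chr7:30594834-30594863, plus strand: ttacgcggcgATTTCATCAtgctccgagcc
IARS, chr9:92293692-92293721, minus strand: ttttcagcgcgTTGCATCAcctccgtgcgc
MARS, chr12:57488053-57488082, plus strand: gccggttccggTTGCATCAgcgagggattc
NARS, chr18:57621804-57621833, minus strand: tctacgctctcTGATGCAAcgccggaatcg
TARS, chr5:33440956-33440985, plus strand: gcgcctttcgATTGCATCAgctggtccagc
YARS2, chr12:32756076-32756105, minus strand: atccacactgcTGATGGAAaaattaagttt
In 6 of these genes the match lay within 40 bases of the start site of its window. In AARS it began 187 bases and in YARS2 197 bases before the start site. A match is a run of letters and does not show binding.

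HARS and HARS2, the cytosolic and mitochondrial histidyl-tRNA synthetases, lie head to head on chromosome 5 with annotated start sites 85 bases apart. The pair is shown because both genes had lower footprint values with QKI7, as given further on. In input RNA neither was called in a fit with no filter on low values. The log2 changes there were -0.14 for HARS and 0.25 for HARS2. The 84 bases between the start sites, read on the plus strand (GRCh38.p14, RefSeq), begin beside HARS and end beside HARS2.
HARS and HARS2, chr5:140691371-140691454, plus strand: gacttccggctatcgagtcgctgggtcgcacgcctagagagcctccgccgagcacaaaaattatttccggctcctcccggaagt
Neither motif occurred in the RefSeq windows of these 2 genes.

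The deposited unit is TPM, a share of transcripts corrected for length. mRNA made up 3.73% to 4.52% of TPM in inputs and 0.612% to 0.632% in footprints, where ribosomal RNA took 96.8% to 97.3%. QKI itself stood at 3.01 and 3.45 TPM in vector inputs and at 1748.86 and 1579.91 TPM in QKI7 inputs. Values below are therefore also given as scaled TPM, in which mRNA entries alone were kept. The libraries were set so that the typical mRNA among the 5270 entries that passed a filter on level is equal in all 8. A step of 0.01, the finest the table holds, is worth 1.86 to 1.96 scaled TPM in a footprint library and 0.18 to 0.217 in an input library. Depth is unknown, since TPM keeps none, and fewer copies per cell cannot be told apart from fewer cells with the mRNA. A further setting, called the deposited setting, fitted log2(TPM + 1) of the unscaled values for the 5806 entries of any RNA class with a mean of at least 1 TPM; it changes scale, entries, filter and the weight of the added 1 at once. Most footprint values of the members tested were below 1 TPM, so the added 1 shrinks their changes there. Of 12 markers of U2OS and mesenchymal cells 6 passed the filter, VIM, COL1A1, COL5A1, SPARC, FN1 and CDH2, and 6 did not: TWIST1, SP7 and COL1A2 were at 0 to 0.07 TPM in every library, and RUNX2, ALPL and BGLAP at 0 to 0.72 TPM. Of 15 markers of blood, endothelial, epithelial, liver and neural cells none passed, and their summed level was 1.33 to 1.69 TPM in inputs and 0.13 to 0.21 TPM in footprints.

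Cytosolic synthetase mRNAs were more abundant than mitochondrial ones. In the mean of the 4 input libraries the cytosolic members ran from 1.6 TPM for FARSB, the beta subunit of phenylalanyl-tRNA synthetase, to 14.2 TPM for GARS, the glycyl enzyme, with a median of 5.92 TPM. The mitochondrial members ran from 0.17 TPM for MARS2 to 2.95 TPM for LARS2, the methionyl and leucyl enzymes, with a median of 1.17 TPM. For 12 amino acids both compartments have a member with the same stem (AARS and AARS2, for example). In 11 of these pairs the cytosolic mRNA had the higher TPM in all 8 libraries. The ratio of mean input TPM was lowest for arginine, where RARS stood at 2.64 and RARS2 at 1.83 TPM, and highest for methionine, where MARS stood at 5.79 and MARS2 at 0.17 TPM; the median ratio was 3.76. Leucine was the exception: LARS was higher in 6 libraries and LARS2 in the QKI7 footprint libraries.

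Summed over members, the cytosolic set exceeded the mitochondrial set 7.17 and 6.8 times in vector inputs, 5.73 and 5.63 times in QKI7 inputs, 8.35 and 9.38 times in vector footprints, and 5.47 and 5.27 times in QKI7 footprints. The ratio was thus lower in each QKI7 library than in either vector library of its kind. In footprints the cytosolic sum was 2500 and 2544 scaled TPM with vector and 1929 and 1935 with QKI7, and the mitochondrial sum 300 and 271 against 353 and 368. Without LARS2 the mitochondrial sums were 252 and 230 against 231 and 230, so the excess in QKI7 footprints lay in LARS2.

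**Figure D1:**
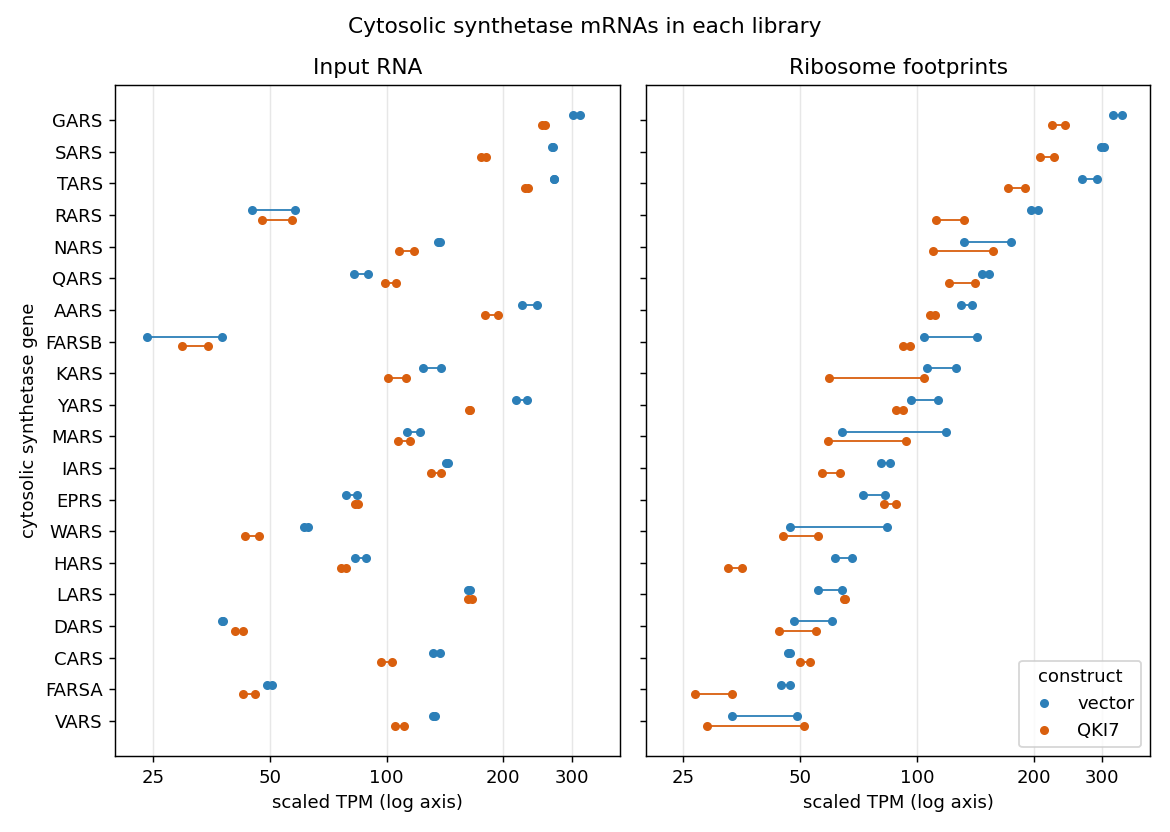
Scaled TPM (log axis) of the 20 cytosolic synthetase mRNAs in input RNA (left) and ribosome footprints (right), 1 point per library and a line joining the 2 libraries of a group, vector in blue and QKI7 in orange. In the footprint panel 12 genes have both QKI7 points to the left of both vector points, and CARS and LARS have both to the right.

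Input RNA with QKI7 was compared with vector to ask whether the mRNA levels of the enzymes differed. SARS, the seryl enzyme, was lower with QKI7, and the other 19 cytosolic members and all 5 tested mitochondrial members did not pass the test. SARS stood at 267 and 269 scaled TPM in the vector inputs and at 175 and 181 in the QKI7 inputs. The QKI7 values lay well below the vector values, a log2 change of -0.58 (SE 0.0823, adjusted p = 0.00694 by limma). Among all 5270 entries tested, 2.96% were called lower and 0.398% higher, against 1 and 0 of the 20 cytosolic members. The SARS call was lost without any 1 of the 4 input libraries (adjusted p 0.0585 to 0.0888) and without a variance trend (0.109), with the log2 change between -0.61 and -0.56.

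The cytosolic members as a set lay below the typical mRNA in this comparison. Their median log2 change was -0.21, beside 0.02 for the 5 mitochondrial members and -0.01 for all entries, and both QKI7 libraries were below both vector libraries for 13 of 20, beside 31.4% of all entries. YARS and CARS, the tyrosyl and cysteinyl enzymes, followed SARS among the lower values. YARS had 230 and 216 scaled TPM with vector and 164 and 163 with QKI7 (-0.44, SE 0.112, adjusted p = 0.0873). CARS had 132 and 137 with vector and 97 and 103 with QKI7 (-0.42, SE 0.124, adjusted p = 0.143). In both genes the groups were apart, but neither passed the test. YARS passed it with quantile normalization (-0.49, adjusted p = 0.0377). Both passed in the deposited setting, YARS at -0.25 (adjusted p = 0.0143) and CARS at -0.22 (adjusted p = 0.022). QARS and DARS, the glutaminyl and aspartyl enzymes of the multisynthetase complex, were the 2 of 20 cytosolic members, beside 29.4% of all entries, whose QKI7 inputs both exceeded both vector inputs, at log2 changes of 0.25 (SE 0.122) and 0.14 (SE 0.188), without passing the test. In the deposited setting the median of all 5806 entries in this comparison was 0.15 and that of the cytosolic members -0.03; the entries called were then 2269 higher and 318 lower, and the cytosolic members 3 and 3.

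The inputs were also fitted alone, an alternative added after the data had been seen. This was done because the shared fit takes its spread from footprints too and its footprint filter leaves out 10 mitochondrial members. The fit of inputs alone also scaled the libraries anew on 11884 entries, which moved the zero point. QARS, for example, went from 0.25 to 0.17, SARS from -0.58 to -0.67 and LARS2 from 0.14 to 0.05. How far this shift added to the calls was not tested. In that fit 10 of 20 cytosolic members were lower and none higher, beside 8.76% and 3.83% of 11884 entries. They were AARS (-0.41), CARS (-0.51), GARS (-0.36), KARS (-0.38), NARS (-0.36), SARS (-0.67), TARS (-0.32), VARS (-0.38), WARS (-0.54) and YARS (-0.53). The adjusted p was lowest for SARS, at 0.000477, and highest for KARS, at 0.024. Of 14 mitochondrial members limma called 0, and 0 had an unadjusted p under 0.05; their log2 changes ran from -0.27 to 0.26. The medians were -0.29 for cytosolic members, -0.01 for mitochondrial members and 0.00 for all entries.

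Ribosome footprints with QKI7 were compared with vector to ask whether the footprint levels of synthetase mRNAs, relative to other mRNAs, differed. Of 20 cytosolic members 7 were lower with QKI7 and 0 higher, and 1 of 5 tested mitochondrial members, LARS2, was higher. Over all 5270 entries 10.7% were called lower and 14.0% higher. The median log2 change was -0.31 for the cytosolic members, 0.23 for the mitochondrial members and -0.01 for all entries. In 12 of the 20 cytosolic members both QKI7 libraries lay below both vector libraries and in 2 above, beside 28.7% and 27.7% of all entries.

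Among cytosolic enzymes that act outside the multisynthetase complex, HARS, TARS, FARSA, GARS and SARS fell. HARS went from 67.8 and 61.3 scaled TPM with vector to 35.3 and 32.5 with QKI7, a fall by 0.91 on the log2 scale (SE 0.140, adjusted p = 0.0039), or 1.88 times lower. TARS, the threonyl enzyme, went from 292 and 267 to 190 and 172 (-0.62, SE 0.0889, adjusted p = 0.00273). In both genes the groups stood far apart compared with the gap between libraries of a group. GARS had 337 and 321 scaled TPM with vector and 223 and 241 with QKI7 (-0.50, SE 0.0793, adjusted p = 0.00425). SARS, already lower in input RNA, had 298 and 303 with vector and 225 and 207 with QKI7 (-0.47, SE 0.0823, adjusted p = 0.00613). These 4 calls held without any 1 of the 8 libraries, with the highest adjusted p at 0.0187. With quantile normalization GARS (0.0597) and SARS (0.0699) missed the threshold, as did HARS in the deposited setting (-0.19, adjusted p = 0.0561); its log2 ratio of mean deposited footprint TPM, with nothing added, was -0.98. FARSA, the alpha subunit of phenylalanyl-tRNA synthetase, had 47.1 and 44.6 with vector and 33.3 and 26.8 with QKI7 (-0.60, SE 0.177, adjusted p = 0.0419). Its groups did not overlap, but the call was lost in 7 of 8 fits without a library, each except that without the first QKI7 footprint library, at adjusted p up to 0.096. It was also lost with the stricter filter (0.0605), with no filter (0.0527) and in the deposited setting (-0.11, adjusted p = 0.273). Its log2 ratio of mean deposited footprint TPM was -0.66. FARSB, its partner subunit, had 104 and 143 with vector and 92.1 and 95.7 with QKI7 and did not pass the test (-0.37, SE 0.242).

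Within the complex RARS and IARS, the arginyl and isoleucyl enzymes, fell. RARS had 205 and 197 scaled TPM with vector and 112 and 132 with QKI7 (-0.72, SE 0.167, adjusted p = 0.0176). Its call was lost without the first vector footprint library (0.0558) and without the first QKI7 footprint library (0.0683), with quantile normalization (0.0621) and in the deposited setting (-0.35, adjusted p = 0.138; log2 ratio of mean TPM -0.77). IARS had 81.0 and 85.4 with vector and 56.9 and 63.2 with QKI7 (-0.47, SE 0.116, adjusted p = 0.023), a call lost without any 1 of the 4 input libraries or the first QKI7 footprint library (0.0521 to 0.0607), and in the deposited setting (-0.14, adjusted p = 0.37; log2 ratio of mean TPM -0.52). Both genes had all QKI7 values below all vector values, while their input values were close: 45.0 and 58.0 against 57.0 and 47.8 for RARS, and 142 and 144 against 138 and 130 for IARS. EPRS, which joins the glutamyl and prolyl activities in a single protein, and LARS had log2 changes of 0.13 (SE 0.129) and 0.12 (SE 0.117). KARS had 126 and 106 scaled TPM with vector and 104 and 59.3 with QKI7 (-0.55, SE 0.239). It did not pass the test, except without the first QKI7 footprint library (-0.95, adjusted p = 0.0106). Likewise WARS passed only without the first vector footprint library (-0.73, adjusted p = 0.0291), where its 2 vector values of 47.1 and 83.6 differed.

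**Figure D2:**
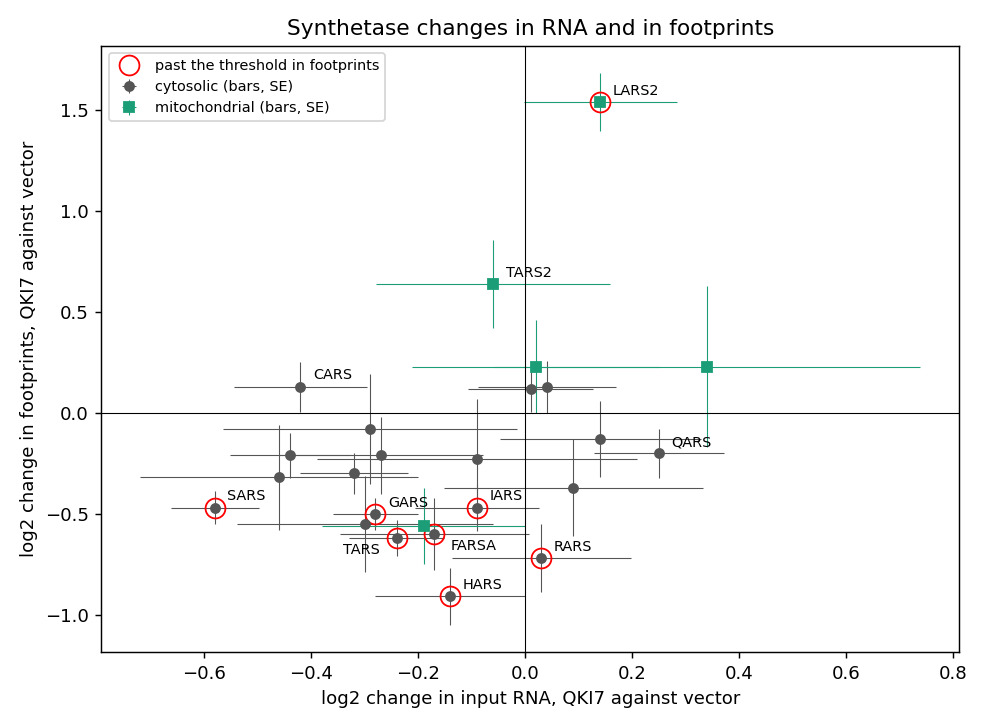
Log2 change with QKI7 against vector in input RNA (horizontal) and in footprints (vertical) for the 20 cytosolic (circles) and 5 mitochondrial (squares) synthetases tested, with SE bars and a red ring where the footprint change passed the threshold. Of the cytosolic members 17 lie below 0 on the vertical axis, and LARS2 stands apart at 0.14 and 1.54.

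LARS2, the mitochondrial leucyl enzyme, had the largest footprint change of the 25 members tested. It stood at 47.1 and 40.8 scaled TPM in vector footprints and at 122 and 138 in QKI7 footprints; as deposited these were 0.25, 0.22, 0.62 and 0.72 TPM. The QKI7 values exceeded the vector values 2.91 times (log2 change 1.54, SE 0.143, adjusted p = 0.00055), and the call held without any 1 of the 8 libraries, at adjusted p up to 0.00336. Input values were 55.2 and 55.5 with vector and 60.6 and 61.3 with QKI7, a log2 change of 0.14 (SE 0.143, adjusted p = 0.846). TARS2 had 32.0 and 26.0 with vector and 49.0 and 42.1 with QKI7 in footprints (0.64, SE 0.218, adjusted p = 0.0676). YARS2, the tyrosyl enzyme, lay the other way, with 50.9 and 50.1 against 33.3 and 34.5 (-0.56, SE 0.190, adjusted p = 0.0658). In both the groups were apart but the test was not passed; TARS2 passed it without the first vector footprint library (0.0498), YARS2 with quantile normalization (0.0382), and both without a variance trend (0.0448 and 0.0249). IARS2 and SARS2 overlapped between groups, each with a log2 change of 0.23.

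The other 10 mitochondrial members fell under the minimum of 0.1 TPM in footprints, where a few steps of 0.01 make up the whole value. They were compared in a fit with no filter on low values, where 9.66% of 14239 entries were called higher and 4.29% lower. HARS2 footprints were listed at 0.09 and 0.06 TPM with vector and at 0.03 and 0.01 TPM with QKI7, a log2 change of -1.72 (SE 0.447, adjusted p = 0.0474). Its QKI7 values lay below its vector values, as for HARS. Its input values were 0.98 and 0.93 against 1.16 and 1.43 TPM. HARS inputs were 88.3 and 83 scaled TPM with vector and 76.5 and 78.4 with QKI7. HARS and HARS2 are close relatives in sequence, and the sources used here do not give how reads common to both were divided. AARS2 was at 0.02 TPM in both vector footprints and at 0.04 TPM in both QKI7 footprints (0.88, SE 0.209, adjusted p = 0.0369), a difference of 2 rounding steps. FARS2 was at 0.08 and 0.09 against 0.04 and 0.03 TPM (-1.13, SE 0.310, adjusted p = 0.0554). PARS2 was listed at 0 in 3 of 4 footprint libraries. Over all 15 mitochondrial members the median footprint change was then -0.22, beside -0.31 for the cytosolic members and 0.16 for all entries. The gap between the sets in footprints thus rested on the 5 members tested: -0.54 among those, and -0.09 with every mitochondrial member in the table.

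**Figure D3:**
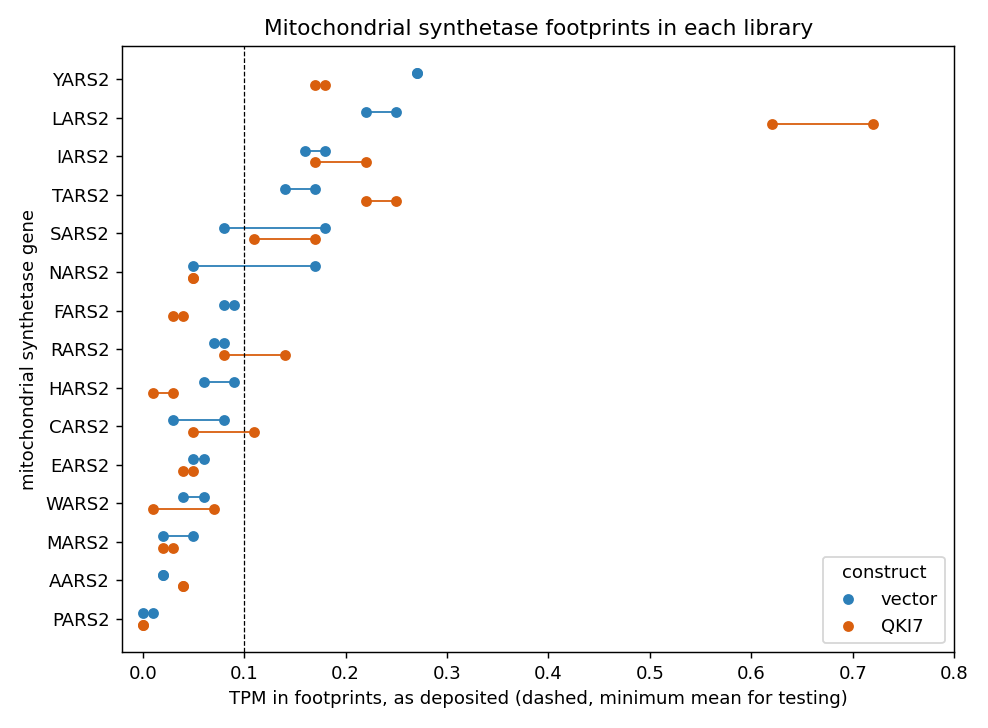
Deposited TPM of the 15 mitochondrial synthetase mRNAs in the 4 footprint libraries, 1 point per library and a line joining the 2 libraries of a group, vector in blue and QKI7 in orange; the dashed line marks the minimum mean of 0.1 TPM for testing. Most members lie within 0.2 TPM of 0, and the QKI7 points of LARS2 stand alone at 0.62 and 0.72 TPM.

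Translation efficiency was tested as the interaction of library type and construct, that is, the footprint change less the input change. LARS2 was higher with QKI7, at 1.40 on the log2 scale (SE 0.203, adjusted p = 0.00892), or 2.65 times. Over all entries 5.67% were called higher and 1.65% lower. The call was lost without any 1 of the 4 input libraries (1.40 to 1.41, adjusted p 0.0545 to 0.0661) and in the deposited setting, where 1 is added to TPM of 0.22 to 0.72 (0.20, adjusted p = 0.102). From mean deposited TPM with nothing added, the footprint log2 ratio was 1.51, the input ratio 0.31 and their difference 1.20. Of 20 cytosolic members limma called 0; at an unadjusted p under 0.05, 4 were lower and 1 higher, beside 9.09% and 15.5% of all entries at that threshold. HARS was nearest to the threshold, at -0.77 (SE 0.199, adjusted p = 0.0586), followed by RARS (-0.75, SE 0.237, adjusted p = 0.0989), CARS (0.56, SE 0.175, adjusted p = 0.1), TARS (-0.38, SE 0.126, adjusted p = 0.11) and QARS (-0.45, SE 0.173, adjusted p = 0.153). HARS passed without the second vector footprint library (0.0341), without the first QKI7 footprint library (0.0469) and with quantile normalization (0.0324). SARS passed as higher with quantile normalization (0.45, adjusted p = 0.0448), and QARS as lower in the deposited setting (-0.46, adjusted p = 0.0181). The median efficiency change was -0.18 for the cytosolic members, 0.21 for the 5 mitochondrial members and 0.04 for all entries. With no filter the 15 mitochondrial members had a median of -0.22. For the members that fell in footprints, the efficiency values spread from 0.11 for SARS to -0.77 for HARS. In the deposited setting the median of all 5806 entries was -0.16, and 207 were called higher and 1254 lower, against 299 and 87 of the 5270. In the footprint comparison that setting gave 209 higher and 267 lower, against 739 and 564. Which of its several changes moved these counts was not tested.

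Footprints were next compared with input RNA within each construct. On this scale 0 is the typical mRNA among the 5270 entries tested, which passed a filter on footprint level. The values thus rank the members by footprint level over input level, relative to those mRNAs, in arsenite-treated cells. How far this ratio reflects ribosome occupancy was not tested. Synthetases spread widely. With vector 4 of 20 cytosolic members were higher in footprints and 7 lower, beside 37.9% and 39.1% of all entries, with a median of -0.09. With QKI7 4 were higher and 9 lower, beside 36.2% and 36.9%, with a median of -0.38. With no filter the cytosolic medians stayed the same. The median of all 14239 entries was then below them, at -0.91 with vector and -0.78 with QKI7. Most entries differed between the library types, so the counts serve here only to place the members among other mRNAs.

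RARS, FARSB and QARS held the highest places among cytosolic members. FARSB stood at 24.1 and 37.6 scaled TPM in vector inputs and at 104 and 143 in vector footprints (1.98, SE 0.242, adjusted p = 0.000104). With QKI7 it was at 34.6 and 29.7 in inputs and at 92.1 and 95.7 in footprints (1.52, SE 0.242, adjusted p = 0.000558). All footprint values exceeded all input values by far. For RARS, whose library values stand above, the log2 ratio was 1.96 (SE 0.167) with vector and 1.20 (SE 0.167) with QKI7. QARS had 89.8 and 82.2 in vector inputs and 153 and 147 in vector footprints (0.79, SE 0.122), and 106 and 99.2 against 141 and 121 with QKI7 (0.34, SE 0.122). The QKI7 call of QARS (adjusted p = 0.0327) was lost without either vector input library, either QKI7 input library or the first QKI7 footprint library (0.0526 to 0.172). It was also lost with the stricter filter (0.12, adjusted p = 0.388), without a variance trend (0.054) and with the culture as a block (0.0579). With equal sums of mRNA QARS lost both calls, at 0.26 with vector (adjusted p = 0.077) and -0.20 with QKI7 (0.164). In the deposited setting the median of all entries was -1.81 with vector and -1.97 with QKI7. FARSB (-0.57 and -0.88), RARS (-0.73 and -1.22) and QARS (-1.50 and -1.96) were below 0 there but above that median.

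VARS, LARS and CARS, the valyl, leucyl and cysteinyl enzymes, were the lowest with vector, and VARS, LARS and HARS with QKI7. VARS had 132 and 133 scaled TPM in vector inputs and 49.0 and 33.4 in vector footprints (-1.69, SE 0.274), and 105 and 111 against 51.0 and 28.7 with QKI7 (-1.47, SE 0.274). LARS had 162 and 164 against 64.1 and 55.7 with vector (-1.43, SE 0.117), and 162 and 166 against 64.7 and 65.1 with QKI7 (-1.33, SE 0.117). Footprint values lay below input values in every library of both genes. CARS went from -1.50 (SE 0.124) with vector, where its footprints were 47.1 and 46.4, to -0.95 (SE 0.124) with QKI7, where they were 52.9 and 49.8. HARS went the other way, from -0.40 (SE 0.140) to -1.17 (SE 0.140). The vector call of HARS (adjusted p = 0.0285) was lost in 5 of 8 fits without a library, those without an input library and that without the second vector footprint library, while its QKI7 call held in all 8.

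Among mitochondrial members YARS2 was higher in footprints with vector, at 23.5 and 22.6 scaled TPM in inputs and 50.9 and 50.1 in footprints (1.10, SE 0.190, adjusted p = 0.00083). With QKI7, LARS2 (1.07, SE 0.143), TARS2 (0.86, SE 0.218) and YARS2 (0.72, SE 0.190) were higher; the call of YARS2 was lost without the first QKI7 input library (0.0795), and those of TARS2 and YARS2 with equal sums of mRNA (0.196 and 0.367). Only YARS2 had passed with vector; LARS2 was at -0.33 there and TARS2 at 0.16. The medians of the 5 tested were 0.16 with vector and 0.72 with QKI7. These members passed a filter on footprint level that 10 others did not, so these medians describe the 5 alone. With no filter, the 15 mitochondrial members had medians of -0.51 with vector and -0.90 with QKI7, beside -0.91 and -0.78 for all 14239 entries. In that fit 1 of the 15 was called higher and 5 lower with vector, beside 16.8% and 44.3% of entries, and 3 higher and 7 lower with QKI7, beside 16.2% and 40.8%. Setting libraries to equal sums of mRNA moved the median of all entries to -0.52 with vector and -0.54 with QKI7. The calls over all entries became 1517 higher and 2560 lower with vector, and 1393 and 2564 with QKI7. In the deposited setting they were 447 and 5220, and 431 and 5272, of 5806 entries.

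**Figure D4:**
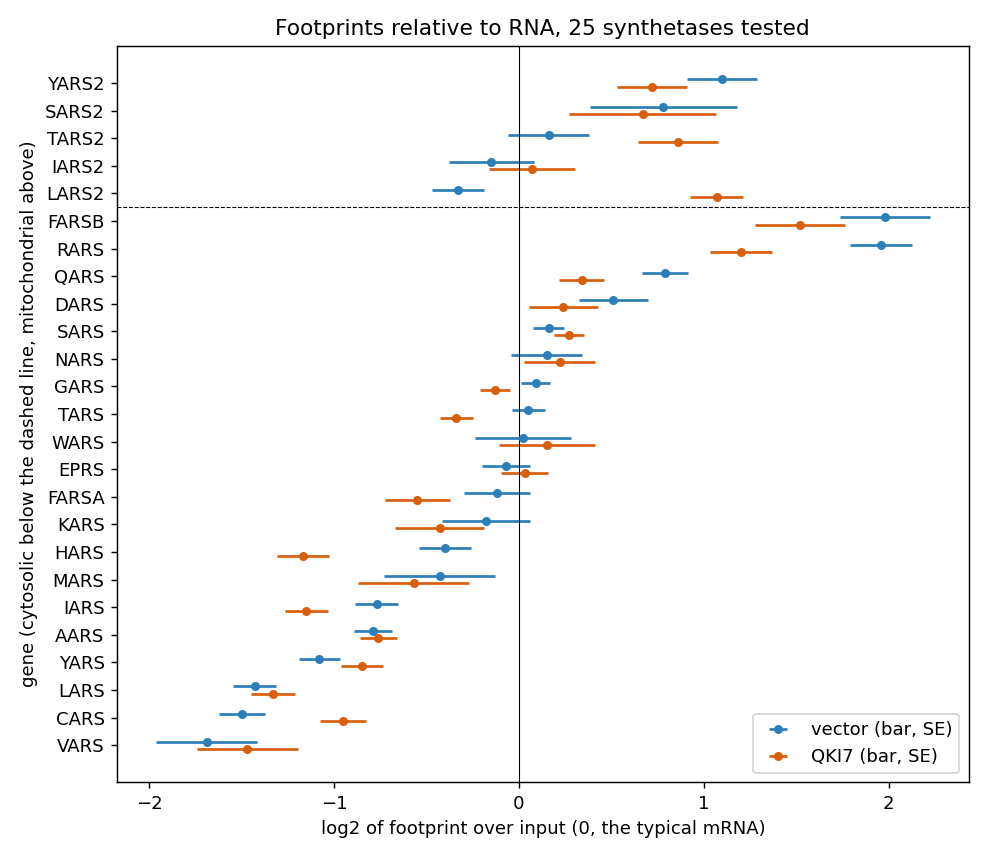
Log2 ratio of footprint to input (horizontal, with SE) for the 25 synthetases tested, vector in blue and QKI7 in orange, mitochondrial members above the dashed line. The typical mRNA among the 5270 entries tested is at 0. FARSB and RARS are highest among the cytosolic members with both constructs and VARS lowest, while LARS2 moves from -0.33 with vector to 1.07 with QKI7.

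The cytosolic members were also grouped by known biology. In inputs the 8 synthetases of the multisynthetase complex had a median log2 change of 0.02 with QKI7, and the 12 outside it -0.29, with both QKI7 libraries below both vector libraries in 2 and in 11 of them, beside 31.4% of all entries. In footprints the medians were -0.21 and -0.35, with 2 of 8 and 5 of 12 called lower, beside 10.7% of all entries. Of the scaffold proteins, AIMP1 fell in footprints, from 99.9 and 87.3 scaled TPM to 49.0 and 63.2 (-0.74, SE 0.164, adjusted p = 0.0152). AIMP2 had 251 and 206 against 118 and 165 (-0.70, SE 0.232, adjusted p = 0.0602). Both had lower values with QKI7 and no overlap, as had 28.7% of all entries, and AIMP2 did not pass the test. The inputs of both overlapped between constructs. EEF1E1 did not reach the input minimum. Calls of these and other listed genes outside the members were not followed over other settings or without a library. Class II members had a median of -0.49 in footprints, with 5 of 10 called lower and 10 of 10 below 0, and class I members -0.21, with 2 of 9 called lower; 10.7% of all entries were called lower and 51.1% were below 0. The difference between these groups was not tested.

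Grouped by ATF4, the 12 listed targets had a median of -0.28 in inputs and -0.26 in footprints, and the other 8 cytosolic members -0.06 and -0.46. Of the listed targets 4 were called lower in footprints (GARS, IARS, SARS and TARS), and of the others 3 (FARSA, HARS and RARS), beside 10.7% of all entries. The 7 genes with the TGATGNAA match shown above were all below 0 in inputs, with a median of -0.27, and the 9 with a window and no match had a median of -0.14, with 5 below 0. In footprints these medians were -0.30 and -0.47, with 3 and 4 called lower, against the same background of 10.7%. The order of the group medians thus differed between inputs and footprints in both divisions; no difference between these groups was tested.

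ATF4 itself was at 1159 and 1110 scaled TPM in vector inputs and 1004 and 1048 in QKI7 inputs (-0.14, SE 0.0511, adjusted p = 0.248). In footprints it fell from 2483 and 2384 to 2127 and 2035 (-0.23, SE 0.0511, adjusted p = 0.0161). Of 22 listed amino acid response genes, ATF4 among them, 19 were tested. In inputs limma called 0 of them, 7 were lower at an unadjusted p under 0.05, beside 9.24% of all entries, and all 19 lay below 0, beside 51.2%, with a median of -0.14. In footprints 5 were lower and 0 higher, beside 10.7% and 14.0% of all entries, with a median of -0.35: ASNS, ALDH18A1, SHMT2, SLC3A2 and ATF4. ASNS, which makes asparagine, fell most, from 162 and 163 to 70.6 and 76.6 (-1.14, SE 0.134, adjusted p = 0.00132). Its inputs of 48.5 and 43.5 against 42.7 and 45.1 overlapped, and its translation efficiency was lower by the test (-1.07, SE 0.189, adjusted p = 0.0166).

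Of 20 other genes of tRNA charging and delivery 12 were tested, among them AIMP1 and AIMP2. In inputs limma called 0, with 1 lower at an unadjusted p under 0.05, beside 9.24% of all entries, and a median of -0.01. In footprints 4 were lower and 0 higher, beside 10.7% and 14.0%, with a median of -0.43. DTD1, which removes D-amino acids from tRNA, fell by 0.92 (SE 0.211, adjusted p = 0.0166), and PTRH2, a peptidyl-tRNA hydrolase, by 0.58 (SE 0.130, adjusted p = 0.0153). EEF1A1, which delivers charged tRNA to the ribosome, fell from 10920 and 10485 scaled TPM to 7912 and 7820 (-0.44, SE 0.0422, adjusted p = 0.000634). Its efficiency was lower too (-0.27, SE 0.0597, adjusted p = 0.0348).

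Among 16 factors of mitochondrial translation, which use the products of the mitochondrial synthetases or support that process, 13 were tested, and in footprints 3 were lower and 2 higher, beside 10.7% and 14.0% of all entries; the share called higher was near that background. Lower were SLIRP, which stabilizes mitochondrial mRNA (-0.94, SE 0.0909, adjusted p = 0.000688), TACO1, a translational activator (-0.89, SE 0.263, adjusted p = 0.0423), and ICT1, a peptidyl-tRNA hydrolase of the mitochondrial ribosome (-0.88, SE 0.239, adjusted p = 0.0313). Higher were MTG1, a GTPase of mitochondrial ribosome assembly, with 26.4 and 29.7 against 56.9 and 82.3 scaled TPM (1.26, SE 0.197, adjusted p = 0.00415), and C12orf65, a release factor relative (1.06, SE 0.249, adjusted p = 0.0186). The median was -0.36. In inputs SLIRP was called lower (-0.62, SE 0.0909, adjusted p = 0.00809) and the other 12 were not called. MTG1 was also higher in translation efficiency, at 1.31 (SE 0.279, adjusted p = 0.0309), beside 1.40 for LARS2.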

How the data were processed

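The authors deposited 1 table of TPM with 2 decimals for 8 libraries of single reads, 51 nt per the labels. STAR, GRCh38 and RSEM 1.2.31 appear in the submitters' processing notes; use of strand is not given in the sources at hand. Entries were matched to RefSeq (GRCh38.p14) by symbol (23970) or older symbol (1444); 1488 had no match. Protein-coding entries other than 70 histone genes were kept (18750) and scaled by median of ratios. Members carry the older symbols of the table.

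Log2(scaled TPM + 1) was fitted with limma 3.58.1 in R 4.3.3 (4 group means, eBayes with a variance trend, 4 residual degrees of freedom) for the 5270 entries that averaged 0.2 TPM or more in inputs and 0.1 TPM or more in footprints. Tests were two-sided, adjusted by Benjamini-Hochberg over all entries, with a threshold of 0.05. Log2 changes are on the log2(scaled TPM + 1) scale, which understates changes of low genes. The smallest p of an exact permutation of 2 against 2 libraries is 0.333, so every call draws on variance that limma shares between genes. The members and lists were chosen with earlier results of these data known. Every member could be named; values in each library are given for members called between QKI7 and vector in the fit of all 8 libraries, for the HARS pair and for the extremes of footprint over input. Scaling, pseudocount, filter, trend, a replicate block and leaving out each library were varied. Single genes were followed over these settings for the members only, so calls of other listed genes have no such check. Replicate numbers were not taken as pairs, though 2 libraries a group cannot exclude that same-numbered libraries shared a culture.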

Additional observations from a re-analysis of the deposited data

Results flagged for a closer look

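LARS2 is listed because its QKI7 change differed between library types: the change in footprints exceeded that in inputs by 1.40 on the log2 scale (SE 0.203, adjusted p = 0.00892 by limma). As deposited, both QKI7 footprint values (0.62 and 0.72 TPM) were above both vector values (0.25 and 0.22 TPM). The deposited inputs were 2.54 and 2.73 TPM with vector and 3.36 and 3.18 TPM with QKI7. From these deposited means the difference of log2 ratios was 1.20. The call was lost without any 1 of the 4 input libraries, at 1.40 to 1.41, and in the deposited setting (0.20, adjusted p = 0.102).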

How the results depend on the processing

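Over 10 alternative settings and 8 fits without a library, the values of single members gave 2012 unchanged calls or directions, 53 gained and 71 lost calls and 29 reversals; the causes were not tested except where stated. Without a library in turn, cytosolic members called in inputs numbered 0 to 2. Mitochondrial members called numbered 1 to 2 in footprints, 0 to 1 in efficiency and 1 to 3 for footprint over input with vector, and cytosolic members called in efficiency 0 to 1. The difference of set medians (cytosolic minus mitochondrial) ran from -0.84 to -0.47 in footprints (-0.54 with all libraries), from -0.58 to -0.16 in efficiency (-0.40), from -0.38 to -0.11 for footprint over input with vector (-0.26) and from -1.19 to -0.93 with QKI7 (-1.11). In inputs it ran from -0.35 to -0.22 (-0.23). The 7 cytosolic footprint calls made with all libraries were not all kept in any fit without a library.

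With quantile normalization, cytosolic calls were 2 in inputs, 4 in footprints and 2 in efficiency (HARS lower and SARS higher), and mitochondrial footprint calls 2. Of all 5270 entries 220 were called in inputs, 1048 in footprints and 398 in efficiency. The differences of medians were -0.34 in footprints, -0.17 in efficiency and -0.89 for footprint over input with QKI7. In the deposited setting, cytosolic calls were 6 in inputs, 3 in footprints, 1 in efficiency and 20 for footprint over input with either construct. Of all 5806 entries 2587 were called in inputs, 476 in footprints and 1461 in efficiency. For footprint over input nearly all were, 5667 with vector and 5703 with QKI7. Mitochondrial calls there were 2 in inputs, 0 in efficiency and 3 for footprint over input with vector. Its differences were -0.14 in footprints, 0.01 in efficiency, -0.60 with vector and -0.67 with QKI7. With the stricter filter they were -0.80, -0.70, -0.48 and -1.29, and mitochondrial calls with vector 2, beside 2148 of 2698 entries. With no filter, which tests all 15 mitochondrial members, they were -0.09, 0.03, 0.42 and 0.52. Mitochondrial calls were then 3 in footprints, 6 with vector and 10 with QKI7. Of 14239 entries 1986, 8696 and 8120 were called in the same comparisons. Without a variance trend there were 0 cytosolic input calls and 3 mitochondrial footprint calls, beside 5 and 1088 of 5270 entries. With equal sums of mRNA, mitochondrial calls were 3 with vector and 1 with QKI7 for footprint over input, beside 4077 and 3957 of 5270 entries. Other pseudocounts (0.25 and 4) changed no count of set calls by over 1.5 times.

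A change of sign counted as a reversal only where the member was called with all 8 libraries or in the alternative. Other changes of sign were counted among the 2012 unchanged. Some of these lay between QKI7 and vector. Without 1 library, footprint changes ran from -0.67 to 0.21 for MARS and from -0.32 to 0.78 for SARS2. Input changes of FARSB ran from -0.22 to 0.40. The 29 reversals so counted all concern footprint over input, whose zero point moves with the scale. With vector, equal sums gave -0.02 for DARS, -0.44 for GARS, -0.37 for SARS and -0.49 for TARS; quantile normalization gave -0.39 for GARS, -0.21 for SARS and -0.32 for TARS; the stricter filter gave -0.22 for TARS. In the deposited setting the vector values were -1.12 for DARS, -0.57 for FARSB, -2.51 for GARS, -2.05 for NARS, -1.50 for QARS, -0.73 for RARS, -2.40 for SARS, -2.48 for TARS and -1.55 for WARS. With QKI7, equal sums gave -0.51 for EPRS, -0.20 for QARS and -0.27 for SARS. The deposited setting gave -1.37 for DARS, -1.93 for EPRS, -0.88 for FARSB, -2.07 for NARS, -1.96 for QARS, -1.22 for RARS, -2.32 for SARS, -1.44 for WARS and -1.35 for LARS2.

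Same-numbered libraries deviated from their group means with correlations of -0.0565 to 0.0319, so the numbers were not taken as pairs. With the replicate block 6 cytosolic members were called in footprints, FARSA being lost (adjusted p = 0.0617), beside 1211 of 5270 entries. With the culture as a block cytosolic calls for footprint over input were 9 with vector and 10 with QKI7, beside 4010 and 3779 entries. The 2-decimal rounding limits the mitochondrial members most, and the depth behind each value is unknown.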
